A study of Mus musculus with 31 samples.

Results

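This account follows 10 genes of amino acid metabolism and of the ATF4 stress response, *Gpt2*, *Bcat1*, *Got2*, *Got1*, *Asns*, *Psat1*, *Phgdh*, *Shmt2*, *Mthfd2* and *Trib3*, in 4 experiments on mouse cells that lack one or both copies of a regulatory gene. *Gpt2*, *Bcat1* and *Got2* were chosen because their values were higher in *Crebbp*+/- fetal liver hematopoietic stem cells (FL HSCs), so that contrast is only described for them. The 7 others were named for their function, with earlier results of these data known, and they ask whether the wider amino acid response moved too. On the Affymetrix mouse array, 28 probe sets of 45037 are annotated to 1 of the 10 genes alone, out of 18193 genes with a probe set of their own. A further 2 probe sets are shared between *Phgdh* and a pseudogene and were left out.

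FL HSCs were Sca-1+, Lin-, AA4.1+, c-Kit++ fetal liver cells at 14.5 days post coitum (dpc), each sample pooling 15 embryos, and 12 ng of its RNA was amplified before hybridization. The C57BL/6 experiments compared 2 *Crebbp*+/- with 2 WT samples and 2 *Ep300*+/- with 2 WT samples. Each sample was read on 2 arrays, and mutants were set against WT littermates. Same-numbered samples were assumed to be pairs, since the sample titles give only a number. The third experiment compared 4 *Cdkn1a*-/- with 3 WT samples on a B6/129Sv background, where mutants and controls came from separate stocks, so that stock and genotype cannot be told apart. The fourth compared *Crebbp*+/- with WT mouse embryonic fibroblasts (MEFs) of C57BL/6 embryos, cultured from 1 embryo of each genotype in each of 4 litters at 14.5 dpc. Equal sample numbers were assumed to be the same litter, so a litter number below is a sample number. The labels do not say how independent the FL HSC samples of a group were, so p-values measure only the spread between these samples, which may be technical.

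ATF4 is a transcription factor that is translated more when kinases that sense amino acid shortage or other stresses phosphorylate the initiation factor eIF2. With C/EBP partners it binds composite elements near genes of amino acid synthesis, amino acid import and tRNA charging, and *Asns* and *Trib3* are textbook targets. Transaminases move amino groups between amino acids and keto acids, and the serine and one-carbon enzymes feed carbon units to nucleotide synthesis, which dividing cells use heavily. CREBBP and EP300 are acetyltransferases that many transcription factors recruit.

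The promoters of the 10 genes were searched for the composite element, since it is the sequence that ties *Asns* and *Trib3* to ATF4. The RefSeq promoter table (GRCm38.p6, 250 bases before to 50 after each start) held a window for all 10 genes. For *Mthfd2* the only window, chr6:83317555-83317854 (minus strand), lay inside the gene, whose annotated 5' end is at 83326011. The sequence at that end was therefore not searched. The letters TGATGNAA, on either strand, were in the windows of 3 of the 10 genes, against 4.51% of all genes with a window (1219 of 27025). *Asns* and *Trib3* were already known as ATF4 targets through this element, so the count does not measure an enrichment. Outside them only *Got1* had a match. The cyclic AMP response element TGACGTCA was in 0 of the 10, against 2.03% of all genes; a match is a description and not a shown binding site. The 3 matches are printed below on the strand of their gene with 9 bases of flank on each side, and the capitals mark the match.
Trib3: agctcaggtTTACATCAgccgggcgg
Asns: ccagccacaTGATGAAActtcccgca
Got1: ttgcattggTTGCATCAtacaagcct
The printed *Trib3* stretch is chr2:152344030-152344055 (minus strand), and its match lay 14 to 21 bases after the start and read the motif on the opposite strand. The *Asns* stretch is chr6:7693216-7693241 (minus strand), with the match 23 to 16 bases before the start on the gene's own strand. The *Got1* stretch is chr19:43524691-43524716 (minus strand), with the match at -102 to -95 bases from the start, on the opposite strand.

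Levels are log2 values that the authors made with GCRMA, separately for each experiment, so they can be compared only within an experiment. An array had 11199 to 12363 probe sets at log2(100) or more in the *Crebbp* and *Ep300* experiments, 18947 to 19522 in the *Cdkn1a* experiment and 14380 to 14684 in MEFs. That level is the minimum intensity used here, and below it the size of a difference depends on the background correction. *Crebbp* was lower in all 4 *Crebbp*+/- MEF samples (9.38 to 9.50) than in the 4 WT samples (10.15 to 10.34), while its FL HSC levels overlapped, at 11.66 and 11.95 in *Crebbp*+/- and 11.41 and 12.07 in WT samples. *Ep300* was 9.46 and 9.47 in *Ep300*+/- and 9.53 and 9.60 in WT FL HSCs. *Cdkn1a* was 5.30 to 8.07 in nulls against 7.66 to 8.86 in WT samples, so it overlapped too, and these probe sets need not lie in the deleted part. Stem and progenitor markers were at or above the minimum for at least 8 of 9 genes in every FL HSC sample, and 8 of 8 fibroblast markers were in every MEF sample. *Cdkn1a* WT sample 3 also carried markers of other cells: 5 of 8 erythroid, 8 of 8 fetal hepatocyte and 8 of 9 macrophage markers reached the minimum there. The other *Cdkn1a* samples had 0 erythroid, 1 to 4 hepatocyte and 2 macrophage markers at or above it. Granulocyte markers were present in all *Cdkn1a* samples, with 4 to 7 of 8 at or above the minimum in nulls (mean level 7.73 to 10.38), 6 and 7 in WT samples 1 and 2 (8.32 and 10.59) and 8 in WT sample 3 (13.73).

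In *Crebbp*+/- FL HSCs the 3 chosen transaminase genes were higher at some of their probe sets and not at others. *Bcat1*, the cytosolic enzyme that starts the breakdown of branched-chain amino acids, had 9.65 and 9.38 in *Crebbp*+/- samples, against 7.998 and 7.94 in WT samples, at 1450871_a_at, its only probe set above the minimum. The mutants lay above both WT samples, with a difference of 1.55 (9.52 ± 0.19 against 7.97 ± 0.04, SD, n = 2 each), and single arrays did not overlap either, at 9.34 to 9.71 in *Crebbp*+/- and 7.43 to 8.44 in WT. The contrast chose this gene, so the difference carries no test.

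*Gpt2*, the mitochondrial alanine transaminase, was higher at both of its probe sets that reached the minimum in this experiment, by amounts that depended on the probe set. The brightest, by mean level, 1438385_s_at, had 8.90 and 9.20 in *Crebbp*+/- samples, against 8.47 and 8.55 in WT samples, a difference of 0.54. The probe set 1455007_s_at had 7.98 and 6.82 in *Crebbp*+/-, against 6.37 and 5.02 in WT, a difference of 1.71. In this experiment it reached the minimum only in the *Crebbp*+/- samples. Both WT values lay under it, so the size of the difference depends on the background correction. These 2 probe sets did not overlap between genotypes, but at 1455007_s_at sample 2 was lower than sample 1 by over 1 log2 unit in both genotypes. A further probe set, 1434542_at, entered the joint fit only through *Ep300* samples. It had 5.93 and 4.04 in *Crebbp*+/- and 4.34 and 2.59 in WT, all under the minimum and overlapping, with a difference of 1.52. From 1 set of arrays to the other the difference at 1455007_s_at was 2.21 and 1.201.

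*Got2*, the mitochondrial aspartate transaminase of the malate-aspartate shuttle, was higher at 1 probe set and level at its brightest. The probe set 1417716_at had 7.91 and 6.47 in *Crebbp*+/- samples, against 6.66 and 4.82 in WT samples. Sample 2 was again the lower of each genotype, so the groups overlapped although each pair differed the same way, by 1.25 and 1.65. The brightest, 1417715_a_at, had 10.47 and 10.81 in *Crebbp*+/- and 10.52 and 10.76 in WT, a difference of -0.004. The higher value of *Got2* thus rests on 1 of its 2 tested probe sets, and over both the mean difference was 0.72.

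**Figure D1:**
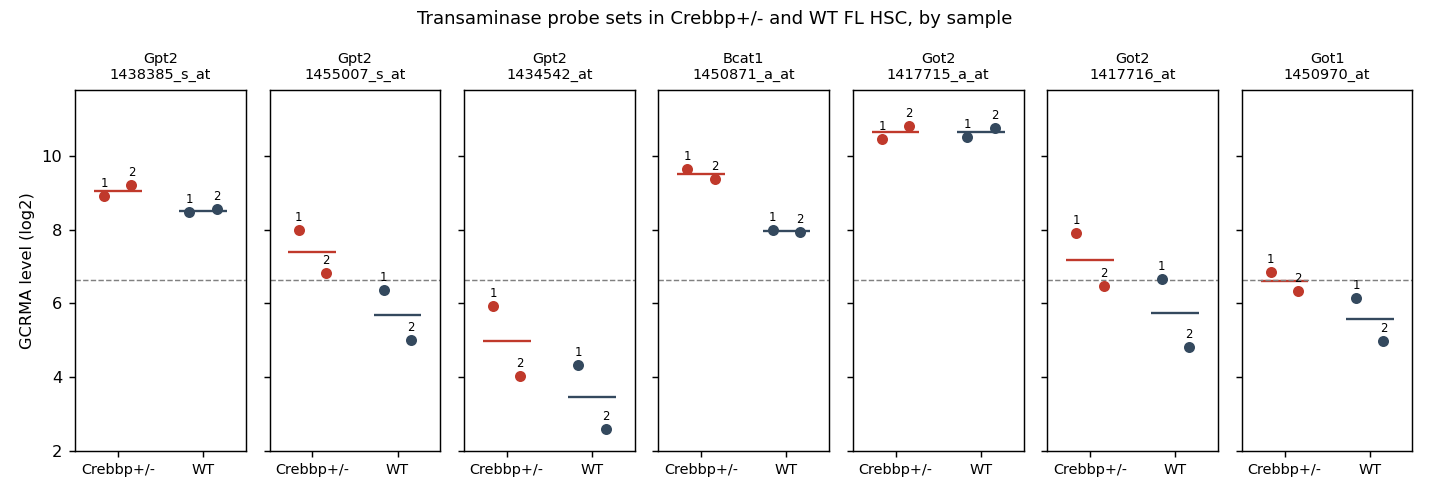
GCRMA level (log2) of every tested probe set of the 4 transaminase genes in *Crebbp*+/- (red, left) and WT (dark blue, right) FL HSC samples; points are samples with their number, bars are means of 2 and the dashed line is the minimum of log2(100). *Bcat1* separated by 1.55 while the brightest *Got2* probe set had means 0.004 apart, and in the dim probe sets of *Gpt2*, *Got2* and *Got1* sample 2 lay below sample 1 in both genotypes.

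The 7 genes that the contrast did not choose gave no call: 0 of their 15 tested probe sets passed an adjusted p under 0.05 (limma, Benjamini-Hochberg over 13332 probe sets) with a fold over 1.5. Over all probe sets 0.383% were called (51), from a fit with 2 residual degrees of freedom. With the p left unadjusted (under 0.05) and the same fold, 1 of the 15 passed, *Got1*, against 10% of all probe sets (1333). The median difference of the 6 of these genes that were tested was 0.26, by brightest probe set, with 4 of 6 higher, against 0.048 and 57.7% higher over all probe sets. Genotypes did not overlap at 4 of the 15 probe sets, against 28.2% of all probe sets.

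*Got1*, the cytosolic aspartate transaminase, came nearest to a call. It had 6.86 and 6.34 in *Crebbp*+/- samples, against 6.16 and 4.99 in WT samples. Within this experiment it reached the minimum only in *Crebbp*+/- sample 1. Both WT values lay under it, so the size of the difference depends on the background correction. The sample means did not overlap, single arrays did (6.23 to 6.89 in *Crebbp*+/- and 4.37 to 6.27 in WT), and the difference was 1.03 (SE 0.18, adjusted p = 0.0705 from limma). The call depended on the setting, since the adjusted p was 0.0494 after another quantile normalization and 0.0267 with a trend in the prior variance, and 0.614 without the replicate block.

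*Mthfd2*, the mitochondrial one-carbon enzyme, differed alike at both of its probe sets. The brighter, 1419253_at, had 10.07 and 10.05 in *Crebbp*+/-, against 9.62 and 9.52 in WT, a difference of 0.49 (SE 0.10, adjusted p = 0.0853 from limma), and the other differed by 0.43 (SE 0.14, adjusted p = 0.16 from limma). Neither overlapped between genotypes by sample, though single arrays did, and neither reached a fold of 1.5. On 1 set of arrays alone the brighter differed by 0.68 and on the other by 0.31.

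*Asns*, asparagine synthetase, had probe sets that disagreed. At 1451095_at it had 9.04 and 9.20 in *Crebbp*+/-, against 8.43 and 8.82 in WT, without overlap and with a difference of 0.49 (SE 0.14, adjusted p = 0.135 from limma). At the brighter 1433966_x_at it had 9.46 and 9.78 in *Crebbp*+/-, inside the 8.82 and 10.05 of WT, and a difference of 0.18 (SE 0.23, adjusted p = 0.676 from limma). The sign at this probe set turned with the pair, 0.64 in pair 1 and -0.27 in pair 2.

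The genes of serine synthesis and its link to the one-carbon pool differed less. *Psat1*, the phosphoserine transaminase, had 12.42 and 12.20 in *Crebbp*+/-, against 12.24 and 11.70 in WT, at its brighter probe set, which overlapped. *Psat1* differed by 0.34 (SE 0.12) there and 0.04 (SE 0.10) at the other, and *Phgdh*, the first enzyme of serine synthesis, by -0.06 to 0.02 at 4. *Shmt2*, the mitochondrial serine hydroxymethyltransferase, ranged over its 4 probe sets between -0.26 (SE 0.10) at the brightest and 0.18 (SE 0.16) at the dimmest. The smallest adjusted p of the 3 genes was 0.194, from limma. *Trib3*, a pseudokinase that ATF4 induces, was at 2.91 and 4.01 in *Crebbp*+/- and 3.18 and 3.38 in WT samples, below the minimum, and was not tested.

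The wider lists, also chosen by function with earlier results known, held no call in this experiment. Of the ATF4 partners and targets, 16 of 28 were tested and 8 of 16 were higher (median -0.028). *Atf4* itself differed by 0.05 (SE 0.10, adjusted p = 0.799 from limma). Among them *Slc1a4*, a neutral amino acid transporter, differed by 0.61 (adjusted p = 0.123), *Cebpg*, a C/EBP partner of ATF4, by 0.34 (adjusted p = 0.194) and *Cebpb* by -0.59 (adjusted p = 0.0877), all from limma. *Impact*, which restrains the amino acid sensing kinase GCN2, was at 8.49 to 9.03 in *Crebbp*+/-, against 9.48 to 10.02 in WT, at 1446750_at, its brightest probe set (difference -0.997, SE 0.13, adjusted p = 0.0520 from limma). By that probe set it was the only one of 7 genes for eIF2 kinases and sensors to pass the unadjusted p and fold, against 10% of all probe sets. At its other tested probe set, 1415911_at, it differed by 0.51 (adjusted p = 0.185 from limma). Cytosolic tRNA synthetases were higher in 13 of 18 (median 0.11), led by *Lars* at 0.52, *Kars* at 0.44 and *Tars* at 0.38, with adjusted p of 0.107, 0.114 and 0.126 from limma. Serine and one-carbon genes were higher in 8 of 10 (median 0.10), branched-chain breakdown genes in 6 of 11 (median 0.003), malate-aspartate shuttle genes in 2 of 5 (median -0.061) and other transaminase and glutamate genes in 3 of 5 (median 0.067). In the last list *Asl*, a urea cycle enzyme, differed by 0.85 (adjusted p = 0.0728) and *Kyat3*, a kynurenine transaminase, by 0.55 (adjusted p = 0.0887), from limma.

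Hepatocytes carry much alanine and aspartate transaminase, so their markers are given beside these values. The mean level of 8 fetal hepatocyte markers was 4.32 and 4.51 in *Crebbp*+/- samples and 2.67 and 5.22 in WT samples, with 1 and 2 of 8 at or above the minimum in *Crebbp*+/- and 0 and 4 in WT. The 4 of them that were tested were all higher in *Crebbp*+/- (median 0.93), and 0 were called. By pair the mean of the markers was higher in *Crebbp*+/- in pair 1 and lower in pair 2. *Bcat1*, *Got1* and the *Gpt2* probe sets were higher in both pairs. WT sample 2 was the highest for the markers and the lowest for the dim *Gpt2*, *Got2* and *Got1* probe sets. Whether hepatocyte RNA had a part in the member values was not tested. Erythroid markers were below the minimum in all 4 samples. Megakaryocyte markers averaged 3.74 and 3.90 in *Crebbp*+/- samples, against 4.37 and 4.52 in WT samples, with 0 of 6 at or above the minimum in *Crebbp*+/- and 1 of 6 in each WT sample. The 2 of them tested, *Gp9* and *Selp*, differed by -1.21 and -0.66 (adjusted p = 0.0542 and 0.0704 from limma), and the part of other cells in the member differences was not tested. In such bulk samples fewer cells of a type and less RNA per cell cannot be told apart.

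In *Ep300*+/- FL HSCs the same genes were near WT, and the values of *Gpt2* and *Got2* that lay lower came from their dim probe sets. *Gpt2* at 1455007_s_at had 6.37 and 6.49 in *Ep300*+/- samples, against 6.90 and 7.46 in WT samples, a difference of -0.75 (SE 0.15, adjusted p = 1.00 from limma). *Gpt2* at 1434542_at differed by -0.52 (SE 0.13) and *Got2* at 1417716_at by -0.40 (SE 0.14), both without overlap by sample and with an adjusted p of 1.00 from limma. Single arrays overlapped at all 3 probe sets, and most of each difference came from 1 of the 2 sets of arrays. On arrays 1 and arrays 2 alone, *Gpt2* at 1455007_s_at differed by -0.28 and -1.21, *Gpt2* at 1434542_at by -0.17 and -0.87 and *Got2* at 1417716_at by -0.03 and -0.76. The brightest probe sets of the 2 genes differed by -0.03 (SE 0.19) and 0.05 (SE 0.10). *Bcat1* had 8.96 and 9.48 in *Ep300*+/-, against 8.998 and 9.51 in WT, which overlapped (difference -0.04, SE 0.11). Hepatocyte markers averaged 3.59 and 2.82 in *Ep300*+/- and 3.78 and 3.31 in WT samples, with 0 of 8 at or above the minimum in every sample, and their part in the *Gpt2* and *Got2* values was not tested.

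The 7 other genes lay between -0.22 and 0.25 over their tested probe sets. *Shmt2*, at its brightest, had 10.08 and 10.07 in *Ep300*+/-, against 9.84 and 9.81 in WT (difference 0.25, SE 0.10, adjusted p = 1.00 from limma), the opposite sign to its -0.26 in *Crebbp*+/-. *Trib3* was again below the minimum, at 4.12 and 4.21 in *Ep300*+/- and 4.26 and 4.14 in WT samples. Of 21 member probe sets 0 were called, against 0% of all probe sets, and 1 of 21 passed the unadjusted p and fold (*Gpt2*, 1455007_s_at), against 0.780%. Genotypes did not overlap at 5 of the 21, against 32.7% of all probe sets. limma called 0 of 13332 probe sets in this experiment (104 at the unadjusted p and fold), and the methods' t-test passed 11, of which 0 were members. The ATF4 list was higher in 7 of 16 genes (median -0.011), tRNA synthetases in 6 of 18 (median -0.064), serine and one-carbon genes in 5 of 10 (median 0.004), branched-chain breakdown genes in 6 of 11 (median 0.009), shuttle genes in 1 of 5 (median -0.040), other transaminase and glutamate genes in 2 of 5 (median -0.083) and eIF2 kinases and sensors in 4 of 7 (median 0.006), with 0 called, against 45.1% higher and a median of -0.016 over all probe sets.

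Whether the *Crebbp* and *Ep300* effects differed was tested in the joint fit for the 7 genes not chosen on the first, and 0 of their 15 probe sets passed, against 0% of all probe sets. *Got1*, whose WT values in the *Crebbp* experiment lay under the minimum, differed most between the 2 effects, by 1.06 (SE 0.25, adjusted p = 0.204 from limma). It was followed by *Asns* at 1451095_at with 0.63 (SE 0.20, adjusted p = 0.267) and *Shmt2* at 1455084_x_at with -0.51 (SE 0.14, adjusted p = 0.241), from limma. Values of *Mthfd2* were 0.31 and 0.34, with adjusted p of 0.383 and 0.464 from limma. A member effect particular to *Crebbp* was therefore not shown for these genes.

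**Figure D2:**
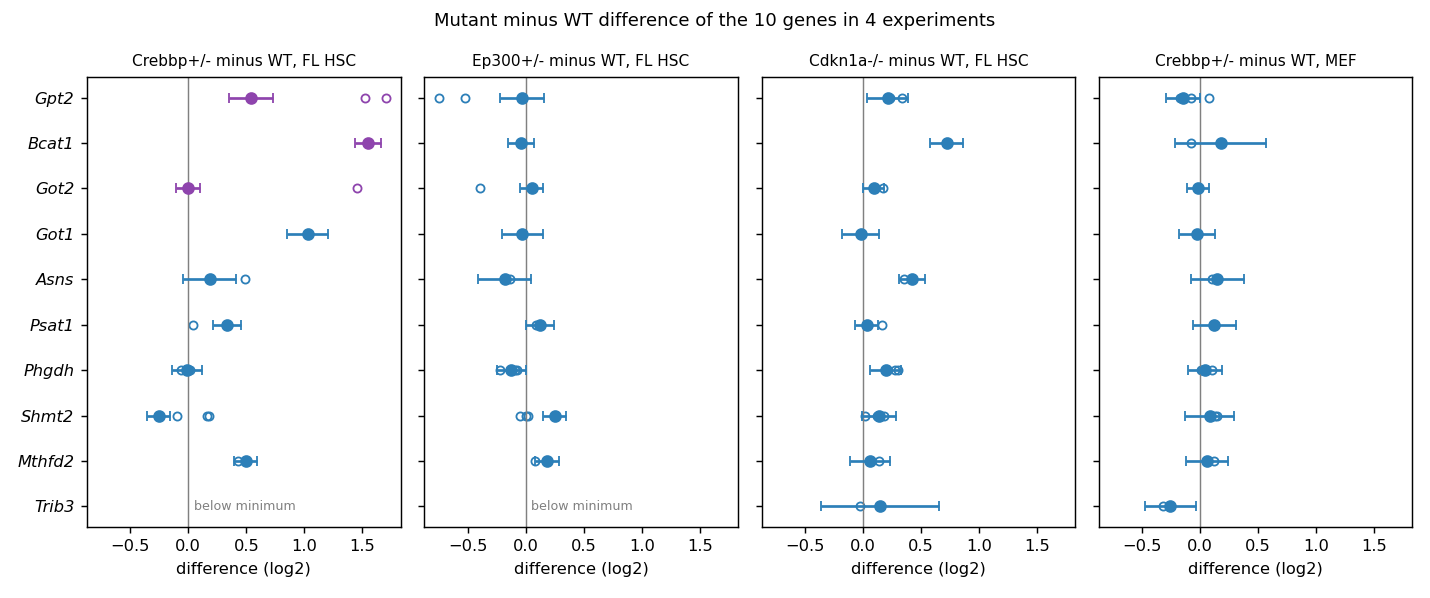
Mutant minus WT difference (log2) of the 10 genes in each experiment; filled points are the brightest probe set with its standard error, open points the other tested probe sets, and purple marks the genes chosen on that contrast. By brightest probe set the chosen genes reached 1.55 in *Crebbp*+/- FL HSCs, and those of the other experiments lay between -0.26 and 0.72. *Gpt2* at 1455007_s_at, not the brightest in either, differed by 1.71 in *Crebbp*+/- and -0.75 in *Ep300*+/- FL HSCs.

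In *Cdkn1a*-/- FL HSCs most of the genes were slightly higher and none was called. The brightest probe set was higher for 9 of 10 genes (median 0.145), and 21 of 23 tested probe sets were, against a median of 0.055 and 62.2% higher over all 20962. Without WT sample 3 the genes' median was 0.088. None of the 23 was called, against 0.405% of all probe sets (85 by limma), and 1 of 23 passed the unadjusted p and fold (*Bcat1*), against 4.05% (848). Genotypes did not overlap at 2 of the 23, against 7.88% of all probe sets.

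*Bcat1* had 11.82, 12.10, 12.00 and 12.20 in nulls, against 11.17, 11.59 and 11.17 in WT samples. All 4 nulls lay above all 3 WT samples, with a difference of 0.72 (SE 0.15, adjusted p = 0.180 from limma). The methods' t-test passed it at an unadjusted p of 0.00476 and did not pass it after adjustment. Without WT sample 3, the sample with markers of other cells, the difference was 0.65 (adjusted p = 0.320 from limma).

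*Asns* had 12.26, 12.50, 12.46 and 12.44 in nulls, against 11.82, 12.17 and 11.98 in WT samples, at 1433966_x_at. These did not overlap (difference 0.42, SE 0.11, adjusted p = 0.398 from limma), and at 1451095_at, where null sample 3 and WT sample 2 both stood at 12.21, the difference was 0.35 (SE 0.12). *Phgdh* differed by 0.20 to 0.31 over 4 probe sets, with WT sample 3 the lowest of all 7 at each. At the brightest *Phgdh* had 14.53, 14.58, 14.61 and 14.49 in nulls, against 14.44, 14.57 and 14.06 in WT samples, and its difference of 0.20 was 0.048 without WT sample 3.

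The transaminases other than *Bcat1* overlapped between genotypes. *Gpt2* differed by 0.21 to 0.34 over 3 probe sets, with null samples 1 and 4 above null sample 3 at each. *Got2* differed by 0.09 (SE 0.09) at its brightest and *Got1* by -0.02 (SE 0.16). *Psat1* (0.03), *Mthfd2* (0.06) and *Shmt2* (0.14) lay within 1 standard error of 0 at their brightest probe sets. *Trib3* stood near the minimum and scattered most, at 7.42, 6.83, 6.76 and 6.17 in nulls and 7.82, 6.04 and 6.06 in WT samples.

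Around the 10 genes, *Slc1a5* was lower in *Cdkn1a*-/- FL HSCs and was the only called gene of the lists in any experiment. Stock and genotype cannot be told apart for it. *Slc1a5* encodes a glutamine and neutral amino acid transporter, and its level was 7.83 to 8.30 in nulls, against 9.64 to 10.20 in WT samples. The groups were far apart, with a difference of -2.002 (SE 0.18, adjusted p = 0.00898 from limma). Of the ATF4 list 11 of 21 were higher, and *Atf4* itself differed by 0.18 (SE 0.09, adjusted p = 0.715 from limma). Cytosolic tRNA synthetases were higher in 15 of 19 (median 0.11), branched-chain breakdown genes in 12 of 14 (median 0.12) and serine and one-carbon genes in 11 of 12 (median 0.077), with 0 called in each. WT sample 3 was the lowest of 7 for 12 of 19 tRNA synthetases, 9 of 14 branched-chain genes and 3 of 12 one-carbon genes, against 39.3% of all probe sets, and its part in these counts was not tested. The malate-aspartate shuttle was higher in 4 of 5 genes (median 0.10), the other transaminase and glutamate genes in 4 of 9 (median -0.040) and the eIF2 kinases and sensors in 4 of 7 (median 0.011).

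**Figure D3:**
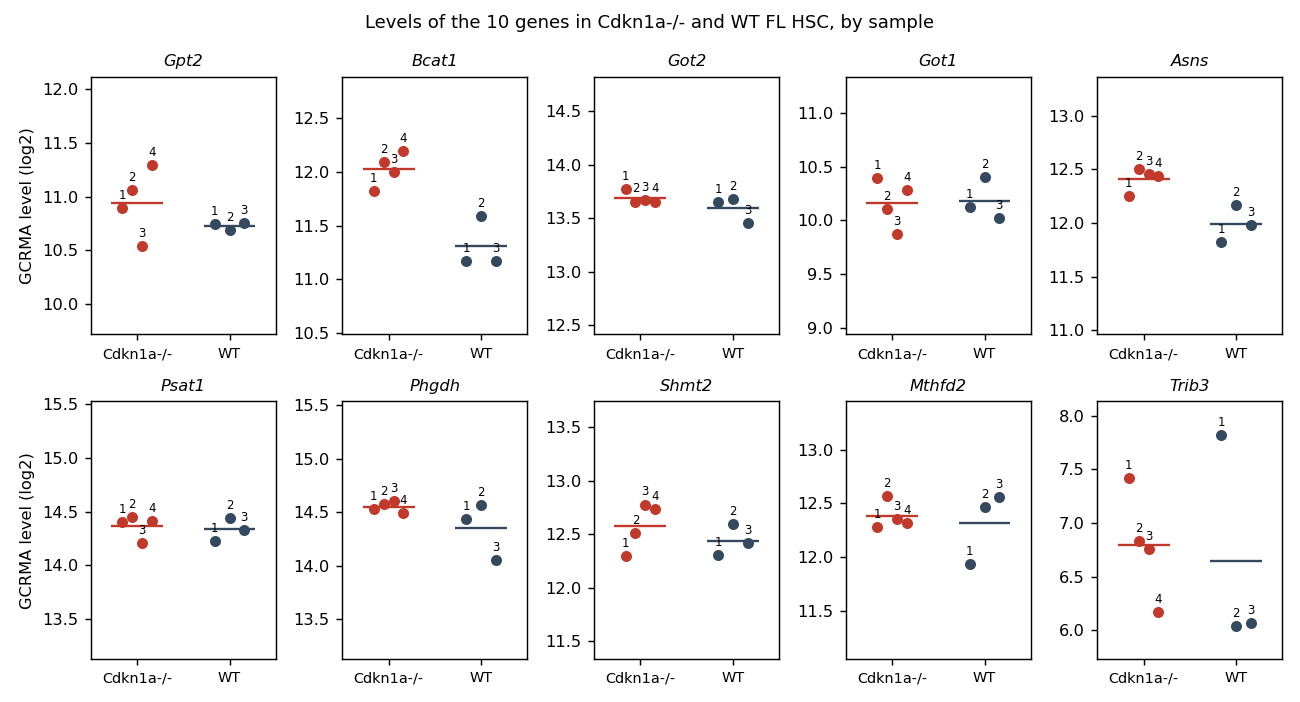
GCRMA level (log2) of each gene's brightest probe set in *Cdkn1a*-/- (red, left) and WT (dark blue, right) FL HSC samples, numbered, with group means as bars. *Bcat1* and *Asns* separated without a call, and *Trib3* had the widest spread, with WT sample 1 at 7.82 and WT sample 2 at 6.04.

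In MEFs all 10 genes were expressed above the minimum, *Trib3* included, and the genotypes overlapped for each. *Trib3* had 9.95, 10.67, 10.54 and 9.55 in *Crebbp*+/- samples of litters 1 to 4, against 9.48, 10.87, 10.97 and 10.42 in WT samples. It overlapped, with a difference of -0.26 (SE 0.22, adjusted p = 0.810 from limma), and its pair was lower in the mutant in 3 of 4 litters. *Bcat1*, higher in *Crebbp*+/- FL HSCs, had 10.52, 11.06, 11.02 and 9.77 in *Crebbp*+/- MEFs, against 8.96, 11.10, 10.85 and 10.75 in WT MEFs. Its difference of 0.18 (SE 0.39, adjusted p = 0.934 from limma) joined litters that pointed opposite ways, 1.56 in litter 1 and -0.98 in litter 4.

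The remaining genes also overlapped. *Gpt2* differed by -0.18 to 0.07 over 4 probe sets, *Got2* by -0.02 at both and *Got1* by -0.02 (SE 0.16). *Asns* had 12.61, 12.91, 12.80 and 12.09 in *Crebbp*+/-, against 11.63, 12.83, 12.84 and 12.52 in WT samples, a difference of 0.15 (SE 0.23). *Psat1*, *Phgdh*, *Shmt2* and *Mthfd2* differed by 0.008 to 0.14 over all their tested probe sets. Of 24 member probe sets 0 were called, against 0% of all probe sets, 0 passed the unadjusted p and fold, against 0.961%, and the genotypes overlapped at all 24, where 3.57% of all probe sets did not overlap. limma called 0 of 15502 probe sets here (149 at the unadjusted p and fold, and 61 by the methods' t-test).

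The 10 genes were low together in 2 of the 8 MEF cultures, 1 of each genotype. The WT sample of litter 1 was the lowest of 8 for 9 of 10 genes, all but *Got2*, and for 21 of 24 probe sets, against 30.7% of all probe sets tested. The *Crebbp*+/- sample of litter 4 was among the 2 lowest for 9 of 10 genes, all but *Got1*, and 22 of 24 probe sets, against 21.8% of all probe sets. Relative to each gene's median over the 8 samples, the median gene stood at -0.47 log2 units in the *Crebbp*+/- sample of litter 4 and at -0.81 in the WT sample of litter 1. The members' median difference was 0.59 in litter 1, -0.09 in litter 2, 0.08 in litter 3 and -0.40 in litter 4.

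Some related lists shared this pattern and others did not. Cytosolic tRNA synthetases were lowest in the WT sample of litter 1 for 17 of 19 genes, and 16 of 19 had the *Crebbp*+/- sample of litter 4 among the 2 lowest. Of the ATF4 partners and targets, 22 of 25 had the WT sample of litter 1 and 20 of 25 the *Crebbp*+/- sample of litter 4 among their 2 lowest. Serine and one-carbon genes had the *Crebbp*+/- sample of litter 4 among the 2 lowest for 5 of 12 and the WT sample of litter 1 for 10 of 12. The other lists had few genes with the *Crebbp*+/- sample of litter 4 among their 2 lowest: 0 of 7 other transaminase and glutamate genes, 1 of 4 shuttle genes, 1 of 14 branched-chain genes and 1 of 7 eIF2 kinases and sensors. In the WT sample of litter 1 these counts were 4 of 7, 3 of 4, 1 of 14 and 3 of 7. The share over all probe sets given above for that sample is for being the lowest. It is therefore no comparison for its counts among the 2 lowest. Proliferation markers were lowest in the WT sample of litter 1 for 8 of 8 genes, with a mean level of 9.70 there and 10.28 to 10.60 in the 7 others. In the *Crebbp*+/- sample of litter 4 they averaged 10.28, with 3 of 8 among the 2 lowest, and their part in the member levels was not tested.

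With these 2 cultures in opposite genotypes, the members' median difference depended on the litters. It was 0.05 over 4 litters, -0.15 without litter 1, 0.18 without litter 4 and 0.03 without both, the last chosen after the values were seen. Of the ATF4 list 10 of 25 were higher in *Crebbp*+/- MEFs (median -0.048). *Ddit3*, the stress-induced factor CHOP, had the smallest p, at 9.37 to 9.82 in *Crebbp*+/-, against 9.93 to 10.25 in WT samples (difference -0.47, SE 0.08, adjusted p = 0.505 from limma). Cytosolic tRNA synthetases were higher in 12 of 19 (median 0.048), serine and one-carbon genes in 9 of 12 (median 0.075), branched-chain breakdown genes in 11 of 14 (median 0.034), malate-aspartate shuttle genes in 4 of 4 (median 0.12), other transaminase and glutamate genes in 5 of 7 (median 0.021) and eIF2 kinases and sensors in 4 of 7 (median 0.044), against 57.9% higher and a median of 0.023 over all probe sets. No list held a call, and of the *Trib3* relatives, which were below the minimum in FL HSCs, *Trib1* differed by 0.57 (adjusted p = 0.701) and *Trib2* by -0.20 (adjusted p = 0.714), from limma.

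**Figure D4:**
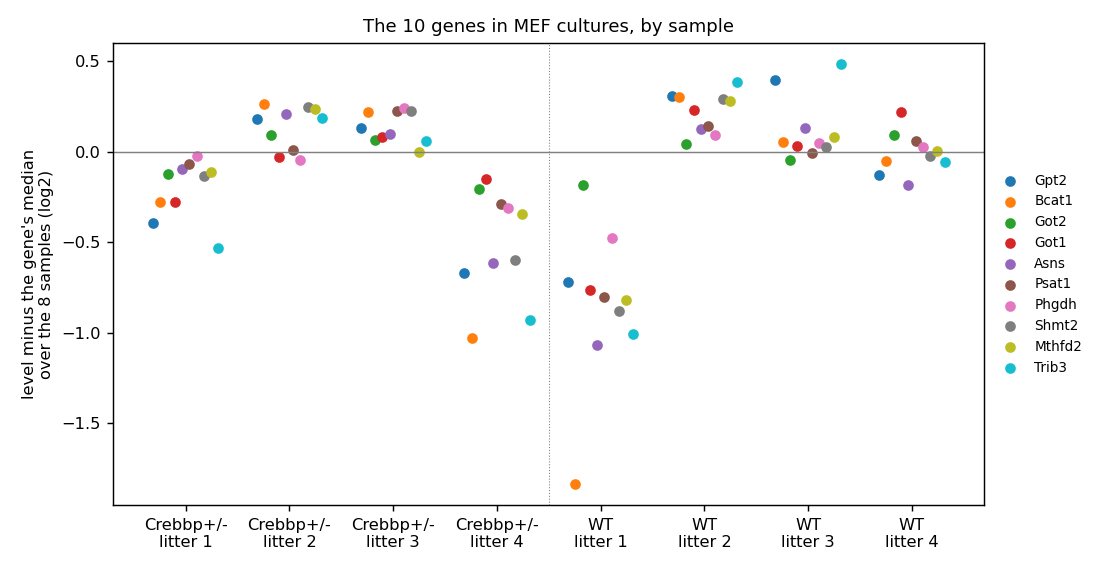
Level of each gene's brightest probe set minus its median over the 8 MEF samples (log2), by sample, *Crebbp*+/- on the left and WT on the right; each colour is a gene. The *Crebbp*+/- sample of litter 4 and the WT sample of litter 1 lay low for nearly all 10 genes, with medians of -0.47 and -0.81.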

How the data were processed

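The deposited table held log2 expression values that the authors computed from Affymetrix mouse arrays with GCRMA (background correction, quantile normalization and probe summary), separately for each experiment. It covered 31 arrays, and the 2 arrays of each *Crebbp* and *Ep300* FL HSC sample were averaged (r of 0.989 to 0.994 between them), which left 23 samples. After 64 control probe sets were left out, 34945 of 45037 probe sets had 1 gene symbol in the platform annotation. Probe sets were tested where the highest sample of the fit reached log2(100). In the joint fit 20 of 21 member probe sets did so within *Crebbp* samples and 20 of 21 within *Ep300* samples. The number of arrays limits the precision.

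Differences were fitted with limma 3.58.1 in R 4.3.3, with Benjamini-Hochberg adjustment over all probe sets of an experiment, and called at an adjusted p under 0.05 and a fold over 1.5. The *Crebbp* and *Ep300* FL HSC samples shared one fit with the pair as a block. The study names paired tests, and the pairing by sample number was assumed. MEFs had the litter, taken from the sample number, as a block, and the *Cdkn1a* fit had none. Deviations of same-numbered samples correlated at 0.70 (*Crebbp* FL HSC), 0.396 (*Ep300* FL HSC) and 0.186 to 0.461 (MEF). The fit was run on simulated data with independent noise, no pair or litter effect, and changes larger than any member difference. That run therefore does not show how well changes of the size seen here are found. The methods' t-test is an alternative, as are other filters, normalizations, blocks, single technical replicates and left-out samples. Here it was unpaired for *Cdkn1a*, where the study names paired tests. It also left out the study's filter on probe sets called absent in all samples, so its counts need not match those of the study.

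All 10 genes are named, and the brightest probe set (by mean over an experiment's samples) stands for the gene. From the pathway lists, genes called or up to 3 with the smallest p are named. The genes and lists were chosen with earlier results of these data known. Promoter sequences came from RefSeq (GRCm38.p6), matched by gene symbol.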

Additional observations from a re-analysis of the deposited data

Results flagged for a closer look

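In each group of 4 samples, the highest or lowest sample was set against the group's range for the brightest probe set of each gene. In 4 of 30 groups its gap to the next sample was above Dixon's 95% critical value of 0.829, and chance alone gives about 1 in 20 for a single group. The groups are the same 3 sets of samples seen at 10 genes, so they are not independent, and 3 of the 4 are 1 sample. WT MEF sample 1 stood below the other WT MEFs for *Bcat1* at 8.962, *Psat1* at 12.064 and *Phgdh* at 12.605 (log2 level). *Got2* stood above the other *Cdkn1a*-/- samples in null sample 1, at 13.773, where the 3 other nulls had 13.65 to 13.67.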

How the results depend on the processing

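In *Crebbp* FL HSCs the 51 probe sets called became 0 without the filter on the level, with technical replicate 1 or 2 alone, with the experiment fitted alone, without either pair (0 to 0), and with no replicate block. They became 276 with a minimum of log2(200), 208 with median centring, 143 with quantile normalization again, 876 with a prior trend and 199 by the methods' t-test (0 after Benjamini-Hochberg adjustment). The 7 genes not chosen there had 0 calls, and 1, *Got1*, with quantile normalization again and 1 with the trend. In *Ep300* FL HSCs the t-test passed 11. In *Cdkn1a* FL HSCs the 85 calls became 42 without the filter and 6 when samples 1 to 3 were blocked by number. The numbers were not taken as pairs there, since nulls and WT samples came from separate stocks and differed in number. Same-numbered deviations correlated at 0.252, 0.287 and -0.0448, while MEF litters 1 and 4, which were used as blocks, had 0.283 and 0.186. The correlation therefore does not tell paired from unpaired samples. The t-test passed 548 (141 after adjustment), with 1 member, *Bcat1*, before adjustment and 0 after. Leaving out a sample gave 38 to 87 calls. The 38 came without null sample 2 or 4, 43 without null 1, 51 without null 3 and 52 without WT 1. In MEFs 0 became 2 with no replicate block, 61 by the t-test, and 0 to 2 when a litter was left out (2 without litter 1). The 51 held 4 probe sets of the 3 chosen genes. These genes were picked on this contrast, so their passing there is no test result. Among the 4, *Gpt2* at 1434542_at was under the minimum in all samples of the *Crebbp* FL HSC experiment. The block changed no call of the 7 others there, nor of a member in the other experiments.

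Signs turned for small differences. In *Crebbp* FL HSCs *Phgdh* was 0.069 with technical replicate 2, and leaving out a pair gave -0.079 to 0.061 for it and -0.271 to 0.638 for *Asns*. The mean over probe sets was 0.722 for *Got2*. In *Ep300* FL HSCs *Got1* was 0.212 with technical replicate 1, and with replicate 2 *Gpt2* was 0.24, *Bcat1* 0.0575 and *Psat1* -0.102. Without a pair *Gpt2* ran from -0.367 to 0.312 and *Phgdh* from -0.287 to 0.043, and the mean over probe sets of *Got2* was -0.173. In *Cdkn1a* FL HSCs leaving out a sample gave -0.0965 to 0.093 for *Got1*, -0.0203 to 0.0857 for *Psat1*, -0.136 to 0.177 for *Mthfd2* and -0.151 to 0.739 for *Trib3*. In MEFs leaving out a litter gave -0.284 to 0.561 for *Bcat1*, -0.0647 to 0.0727 for *Got2*, -0.194 to 0.092 for *Got1*, -0.129 to 0.34 for *Asns*, -0.0843 to 0.275 for *Psat1*, -0.094 to 0.17 for *Phgdh*, -0.141 to 0.299 for *Shmt2* and -0.157 to 0.193 for *Mthfd2*. Without litters 1 and 4, chosen after the data were seen, *Got2* was 0.0795 and *Mthfd2* -0.0625. The causes were not tested. The members' median was 0.259 to 0.496 in *Crebbp* FL HSCs, 0.0884 to 0.173 in *Cdkn1a* FL HSCs, and changed sign in *Ep300* FL HSCs (-0.0278 to 0.0905) and MEFs (-0.149 to 0.182). Near or below log2(100) the size of a difference depends on the background correction.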
